A study of Mus musculus with 6 samples.

Results

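The 30 genes described here encode enzymes of cholesterol and fatty acid synthesis and the proteins that control them. They were taken by name from the table of counts, which holds 15445 genes. All 30 had a row and all 30 were among the 12987 genes that passed the filter on low counts and were tested. RNA was sequenced from monoclonal transgenic CD4+ T cells in the spleen of C57BL/6 mice on day 5 of an LCMV (lymphocytic choriomeningitis virus) infection. These cells were sorted by CD4, by Thy1.1, which tells cells of different origin apart, and by high or low surface CD25, a chain of the interleukin-2 receptor. Each of these CD25 groups has 3 libraries, whose values are always given in the order of their numbers, and no uninfected or unsorted group was analysed here. The labels name neither the transgene nor whether libraries came from separate animals, so p-values cover no more than the spread among these 6, which may be technical.

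Cells make cholesterol from acetyl-CoA through mevalonate, isoprenoids, squalene and a series of sterol rings, and they make fatty acids from the same precursor. Both branches are driven by the sterol regulatory element binding proteins (SREBPs), membrane-bound transcription factors that SCAP escorts from the endoplasmic reticulum to the Golgi for cleavage when sterols are scarce, and that INSIG proteins hold back when sterols are plentiful. T cells raise this programme when they are activated and divide, because new membrane has to be built.

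Total counts ranged from 16787233 to 23567066 per library, and 29.26% to 35.33% of them came from mitochondrial ribosomal RNA. Levels are given as CPM (counts scaled to a common library size after TMM adjustment). Il2ra, which encodes CD25 and checks the sort, ranged from 432 to 1540 CPM in CD25-high and from 20.7 to 35.7 CPM in the CD25-low libraries. All 8 T cell markers examined had counts, and their summed level was 2750 to 2900 CPM in CD25-high and 2790 to 3690 CPM in the CD25-low libraries. Of these, Cd3d (37.4 to 79.7 against 109 to 133 CPM), Cd3g (54.8 to 106 against 133 to 179) and Cd2 (126 to 140 against 155 to 222) were lower without overlap. That was so for 9.54% of all tested genes. None of them passed (edgeR adjusted p 0.204, 0.279 and 0.487), and the rest overlapped. B cell markers summed to at most 15.7 CPM, and Ms4a1, Cd79a and Pax5 have no row in the table used here. Myeloid markers, of which 7 of 10 were in the table, summed to 27.7 to 90.3 CPM in CD25-high and 13.2 to 43.0 CPM in the CD25-low libraries. Most of this was Itgam, with 21.1, 77.2 and 71.6 CPM against 5.03, 26.3 and 32.1 CPM (edgeR adjusted p 0.433, or 0.0013 in the block fit). Cd68 had 2.83, 7.72 and 5.13 CPM against 5.2, 5.66 and 8.56 CPM. Csf1r had 2.89, 2.34 and 1.52 CPM against 2.08, 0.639 and 1.57 CPM. Itgax, Fcer1g, Lyz2 and S100a9 did not exceed 1.38, 1.22, 0.724 and 0.426 CPM, and Adgre1, Cd14 and S100a8 have no row. The part of such cells in the results was not tested.

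Promoters of 23 of the 30 genes were found in RefSeq (GRCm38.p6, the same assembly as mm10), as the 250 bases before to the 50 bases after each start. The letters TCACNCCAC, which form the core of a sterol regulatory element, occurred on either strand in the promoter of 1 of these 23 genes, Hmgcs1 (4.35%), against 1.38% of 9055 tested genes with a promoter. The letters CCAAT, the core of the box bound by NF-Y, a partner of SREBPs, occurred on either strand in 18 of the 23 (78.3%), against 43.1% of tested genes. A match of letters is a description and not a binding site. Only exact matches within these promoters were counted, so a gene without one cannot be said to lack an element. The promoters of 4 genes are printed 5′ to 3′ on the gene's strand, with matches to either motif in capitals (CCAAT reads ATTGG where it lies on the other strand). Hmgcs1 is shown for its sterol element, Cyp51 and Sc5d because their levels were lower in every CD25-high than in every CD25-low library, and Scap because its level was higher in every CD25-high library.
Hmgcs1, plus strand, chr13:119690101-119690400: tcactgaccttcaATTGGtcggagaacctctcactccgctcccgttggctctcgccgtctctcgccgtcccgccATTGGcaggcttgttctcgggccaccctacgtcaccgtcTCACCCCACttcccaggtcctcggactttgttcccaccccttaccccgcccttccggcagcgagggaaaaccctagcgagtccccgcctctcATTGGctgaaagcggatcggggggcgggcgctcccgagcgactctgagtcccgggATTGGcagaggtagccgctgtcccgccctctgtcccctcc
Cyp51, minus strand, chr5:4104648-4104947: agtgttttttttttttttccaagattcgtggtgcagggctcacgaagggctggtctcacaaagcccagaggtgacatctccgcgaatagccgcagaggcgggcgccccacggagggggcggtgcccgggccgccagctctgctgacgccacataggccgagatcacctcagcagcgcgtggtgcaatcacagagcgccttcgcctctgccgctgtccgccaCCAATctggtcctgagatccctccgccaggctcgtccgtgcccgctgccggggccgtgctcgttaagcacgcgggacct
Sc5d, minus strand, chr9:42264251-42264550: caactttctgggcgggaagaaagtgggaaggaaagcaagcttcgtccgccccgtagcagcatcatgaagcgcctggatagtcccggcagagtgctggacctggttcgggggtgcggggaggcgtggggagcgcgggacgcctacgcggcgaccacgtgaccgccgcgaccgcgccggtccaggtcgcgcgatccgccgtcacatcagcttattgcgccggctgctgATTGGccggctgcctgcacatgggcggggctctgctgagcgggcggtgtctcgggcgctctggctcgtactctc
Scap, plus strand, chr9:110333038-110333337: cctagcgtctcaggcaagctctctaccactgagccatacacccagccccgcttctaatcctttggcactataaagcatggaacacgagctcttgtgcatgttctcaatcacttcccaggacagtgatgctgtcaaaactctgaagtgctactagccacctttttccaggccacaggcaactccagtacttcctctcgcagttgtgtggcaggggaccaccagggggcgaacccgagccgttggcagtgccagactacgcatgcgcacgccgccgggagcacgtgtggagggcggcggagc
Hmgcs1 carried 4 CCAAT boxes, Cyp51 and Sc5d 1 each and Scap none. The last 3 were picked by their levels here, and whether boxes go with the direction was not tested. Acat2 and Acss2, also lower in each CD25-high library than in the CD25-low library of its number, had 0 and 1. Acaca and Fasn, higher in each, had 0 and 3. In Cyp51 and Sc5d the box began 29 and 24 bases before the start.

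Differences between CD25-high and CD25-low cells were small for most of the 30 genes relative to the spread between libraries. With edgeR's quasi-likelihood test and Benjamini-Hochberg adjustment over all tested genes, 0 of 30 passed an adjusted p of 0.05, where 0.655% of all tested genes did (0.154% higher and 0.501% lower). At an unadjusted p under 0.05 there were 4, Cyp51, Sc5d and Msmo1 lower and Scap higher in CD25-high cells, where 11.1% of all tested genes did (6.39% lower and 4.69% higher). DESeq2 and limma voom also called 0 of 30, where they called 2.7% and 0.724% of the genes given an adjusted p, and the lowest adjusted p among the 30 was 0.0791 and 0.252. With the replicate number as a block, which pairs same-numbered libraries, 1 of 30 passed (Cyp51, lower), where 4.63% of all tested genes did (1.73% higher and 2.9% lower). The median log2 fold change, CD25-high relative to CD25-low, was -0.14 over the 30 genes and 0.01 over all tested genes. Of the 30 values 22 lay below 0, where 6392 of all 12987 tested genes did. Without CD25-low library 1 the median of the 30 was -0.07, with 17 below 0, and in the block fit without pair 1 it was -0.03, also with 17 below 0. The levels of 3 genes did not overlap between the groups, Cyp51 and Sc5d below and Scap above, where 16.9% of all tested genes had no overlap (9.54% below and 7.41% above). In sorted bulk samples such as these, fewer cells with a transcript and less of it per cell cannot be told apart.

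The approximate 95% interval of the log2 fold change lay within a 2-fold change in both directions for 14 of the 30 genes, and reached 2-fold for the other 16. For those 16 a missed threshold does not show equal levels.

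**Figure D1:**
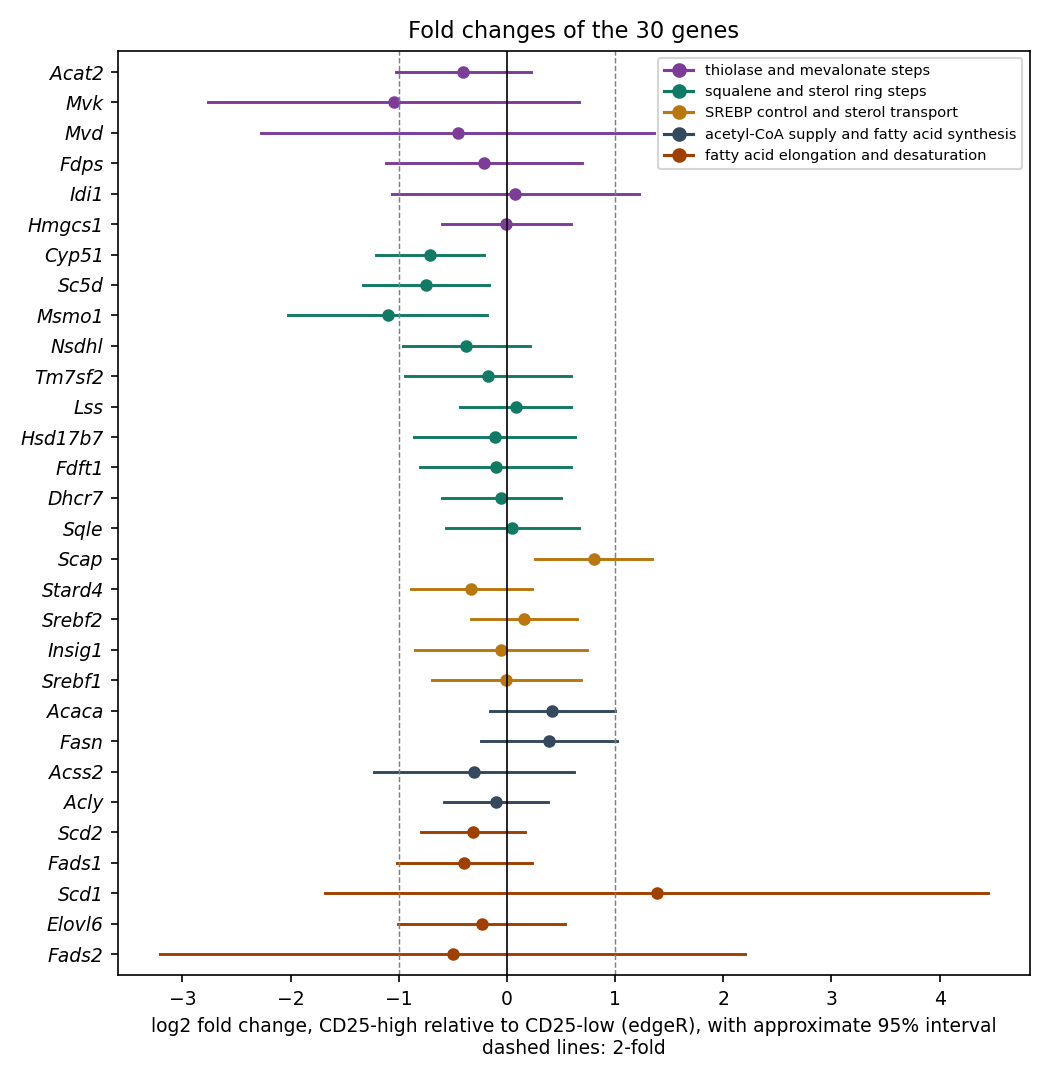
Log2 fold change of each of the 30 genes in CD25-high relative to CD25-low cells (horizontal axis), with its approximate 95% interval, coloured by role, and dashed lines at 2-fold. Intervals of 4 genes, Cyp51, Sc5d, Msmo1 and Scap, do not include 0, and the widest belong to the low-count genes Scd1 and Fads2.

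Among the first enzymes of the sterol branch, from acetoacetyl-CoA to farnesyl pyrophosphate, 0 of 6 passed and the median log2 fold change was -0.31. Hmgcs1, which makes HMG-CoA from acetyl-CoA, had 37.1, 50.1 and 46.1 CPM across the CD25-high group, against 61.5, 36.7 and 35.7 CPM across the CD25-low group. The groups overlapped, CD25-low library 1 was the highest of all 6, and the log2 fold change was -0.005 ± 0.27 (SE, n = 3 each, edgeR adjusted p 0.998). Acat2, the cytosolic thiolase that feeds this enzyme, had 18.7, 17.7 and 12.9 CPM in CD25-high and 26.9, 18.1 and 20.5 CPM in the CD25-low libraries. Each CD25-high library was below the CD25-low library of the same number, by 0.52, 0.03 and 0.67 on the log2 scale in pairs 1, 2 and 3, and the difference did not pass (-0.41 ± 0.28, adjusted p 0.653). Of the Acat2 transcript's stretches of 50 bases, 39.1% occur also in its close copy Acat3, so the division of reads between them is uncertain. Hmgcs1 shares 557 exonic bases with the antisense transcript Gm48342 on the other strand, so its counts are uncertain to that extent.

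Mevalonate kinase (Mvk) and mevalonate diphosphate decarboxylase (Mvd) had few counts. Mvk had 10, 22 and 14 counts in CD25-high and 9, 53 and 60 counts in CD25-low libraries, and Mvd had 4, 55 and 52 against 35, 45 and 109 counts. Both were low in CD25-high library 1, and Mvk in CD25-low library 1 as well. Their log2 fold changes, -1.05 ± 0.77 and -0.45 ± 0.82, had intervals from -2.76 to 0.67 and from -2.27 to 1.36. Idi1, the isopentenyl diphosphate isomerase, and Fdps, which makes farnesyl pyrophosphate, gave log2 fold changes of 0.08 ± 0.52 and -0.21 ± 0.41 (edgeR adjusted p 0.974 and 0.897). Other genes hold 25.3% of the 50-base stretches of Idi1 and 26.2% of those of Fdps, mostly Gm13502 and Gm43738, so these counts are uncertain.

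Of the 10 genes for the squalene and sterol ring steps 0 passed without the block and 1 with it (Cyp51), where 0.655% and 4.63% of all tested genes did. Their median log2 fold change was -0.14. At an unadjusted p under 0.05, 3 of the 10 were lower in CD25-high cells, where 6.39% of all tested genes were, and no test compared the role groups. Cyp51, the demethylase that acts on lanosterol, the first sterol ring, had 61.8, 56.0 and 76.7 CPM across the CD25-high group, against 127, 84.1 and 107 CPM across the CD25-low group. All CD25-high libraries were below all CD25-low libraries, with means of 64.8 ± 10.7 and 106 ± 21.5 CPM (SD, n = 3 each). The log2 fold change was -0.71 ± 0.23, with an edgeR adjusted p of 0.267, and 0.0404 with the replicate block. That call with the block was lost without pair 1, 2 or 3 (edgeR adjusted p 0.126, 0.0774 and 0.0554). Cyp51 (mm10, chromosome 5, minus strand, 4081145 to 4104746) shares 166 exonic bases with Akap9 on the other strand.

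Sc5d, the sterol desaturase near the end of the pathway, had 11.8, 17.3 and 15.6 CPM in CD25-high and 25.6, 26.1 and 23.4 CPM in the CD25-low libraries. The groups did not overlap, and the 3 CD25-low libraries lay close together. The log2 fold change was -0.75 ± 0.26 (edgeR adjusted p 0.316, or 0.122 in the block fit). Msmo1, the methyl sterol oxidase that acts after Cyp51, had 12.8, 13.0 and 7.50 CPM in CD25-high and 38.3, 12.6 and 20.6 CPM in the CD25-low libraries. CD25-low library 1 was the highest by far and CD25-low library 2 lay among the CD25-high values, so the groups overlapped. Its log2 fold change of -1.10 ± 0.42 had an adjusted p of 0.356, and without CD25-low library 1 it was -0.58 (edgeR adjusted p 0.551). With the block it passed only when pair 2 was left out (edgeR adjusted p 0.011). Sc5d (chromosome 9, minus strand, 42251595 to 42264256) and Msmo1 (chromosome 8, minus strand, 64718139 to 64733792) share under 1% of their 50-base stretches with other genes.

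Sqle, the squalene epoxidase and a controlled step of the pathway, had 66.2, 46.4 and 57.3 CPM in CD25-high and 76.8, 39.5 and 47.7 CPM in the CD25-low libraries. In each group library 1 was highest, and the log2 fold change was 0.05 ± 0.28 (adjusted p 0.967). For the other 6 genes of these steps, values ran from -0.38 ± 0.26 for Nsdhl, which removes carboxyl groups from the sterol ring system, to 0.08 ± 0.23 for lanosterol synthase (Lss). Between them were the sterol reductases Tm7sf2 (-0.18 ± 0.35), Hsd17b7 (-0.11 ± 0.34) and Dhcr7 (-0.05 ± 0.25) and the squalene synthase Fdft1 (-0.10 ± 0.31). Fdft1 shares 774 exonic bases with Ctsb on the other strand and Tm7sf2 532 bases with Vps51 on its own strand, so their counts are uncertain to that extent.

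**Figure D2:**
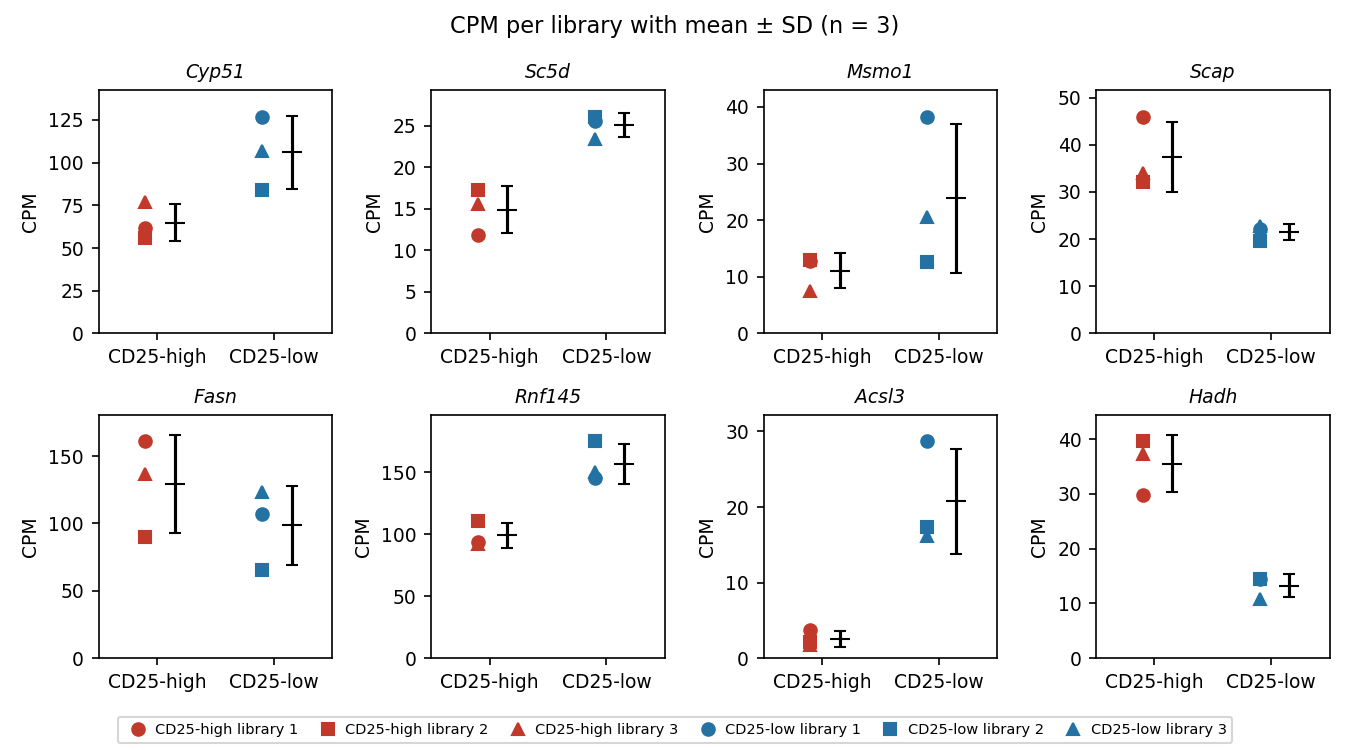
CPM of 8 genes in each library (points, with the library number by symbol) and the mean ± SD of each group (n = 3 each), every vertical axis starting at 0. Cyp51, Sc5d, Rnf145 and Acsl3 are lower and Scap and Hadh higher in each CD25-high library than in any CD25-low library, and for Msmo1 and Fasn the groups overlap.

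Of the 5 control and transport genes 0 passed, where 0.655% of all tested genes did. Scap had the smallest edgeR p among them. Scap, the sterol-sensing escort of SREBPs, had 46.0, 32.2 and 34.1 CPM across the CD25-high group, against 22.1, 19.5 and 22.8 CPM across the CD25-low group. The groups did not overlap, with CD25-high above, as was so for 7.41% of all tested genes, and CD25-high library 1 was highest. The log2 fold change was 0.80 ± 0.24, with an interval from 0.26 to 1.34, an edgeR adjusted p of 0.235, and 0.067 with the block. Scap (chromosome 9, plus strand, 110333288 to 110384950) shares 985 exonic bases with 5830462I19Rik on the other strand. That transcript had 23.1, 9.69 and 9.59 CPM in CD25-high and 3.66, 4.13 and 7.65 CPM in the CD25-low libraries, also without overlap. Its part in the Scap difference was not tested, because no strand setting is stated.

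The transcription factors themselves overlapped between the groups. Srebf2, whose protein drives mainly the sterol branch, had 68.8, 65.5 and 65.6 CPM in CD25-high and 45.1, 62.6 and 70.8 CPM in the CD25-low libraries, and the CD25-low values enclosed all CD25-high values. Srebf1, whose protein drives mainly the fatty acid branch, had 10.8, 15.8 and 17.9 CPM against 13.1, 13.3 and 18.4 CPM. Their log2 fold changes were 0.16 ± 0.22 and -0.01 ± 0.31 (edgeR adjusted p 0.85 and 0.996). Insig1, which retains SCAP in the endoplasmic reticulum and is itself an SREBP target, had 24.6, 14.5 and 10.3 CPM against 20.9, 17.4 and 13.2 CPM, with the groups overlapping throughout (-0.06 ± 0.36, edgeR adjusted p 0.973). Stard4, a carrier of sterols between membranes, had 42.0, 63.2 and 68.0 CPM against 63.4, 63.4 and 91.0 CPM (-0.33 ± 0.25, adjusted p 0.688).

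Of the 4 genes that supply acetyl-CoA and build fatty acids 0 passed, with a median log2 fold change of 0.15. Fasn, the fatty acid synthase, had 161, 90 and 137 CPM across the CD25-high group, against 107, 65.6 and 123 CPM across the CD25-low group. The groups overlapped, and each CD25-high library exceeded the CD25-low library of its number, by 0.59, 0.46 and 0.16 on the log2 scale. Acaca, the acetyl-CoA carboxylase that commits carbon to fatty acids, had 33.0, 23.9 and 26.9 CPM against 25.6, 18.1 and 18.9 CPM. It too was higher in all 3 pairs, by 0.36, 0.39 and 0.51, where 20.4% of all tested genes were higher in all 3. Neither passed (Fasn 0.39 ± 0.29, edgeR adjusted p 0.671, and Acaca 0.42 ± 0.26, adjusted p 0.604), and the block did not change this (edgeR adjusted p 0.209 and 0.365). The pseudogene Gm5182 holds 29.2% of the 50-base stretches of Acaca. Acly, which cleaves citrate to acetyl-CoA, had 111, 105 and 107 CPM against 149, 99.1 and 99.0 CPM, where only CD25-low library 1 stood apart. Acss2, which makes acetyl-CoA from acetate, was low at 3.63, 6.23 and 5.41 CPM against 5.03, 8.43 and 5.42 CPM. Their log2 fold changes were -0.10 ± 0.22 and -0.31 ± 0.42 (edgeR adjusted p 0.908 and 0.85).

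Of the 5 elongation and desaturation genes 0 passed, with a median of -0.31. Scd2, a stearoyl-CoA desaturase that introduces a double bond into saturated fatty acids, had 105, 114 and 147 CPM in CD25-high and 164, 122 and 170 CPM in the CD25-low libraries. It was lower in CD25-high cells in all 3 pairs, by 0.64, 0.10 and 0.20, and did not pass (-0.31 ± 0.22, adjusted p 0.653). Its relative Scd1 was very low, with 21, 35 and 0 counts in CD25-high and 14, 0 and 10 counts in CD25-low libraries. A count of 0 allows up to 3 counts, which is 0.169 CPM in CD25-high library 3 and 0.128 CPM in CD25-low library 2, counting error only. Scd1 and Scd2 share under 5% of their 50-base stretches with other genes, each other included.

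Fads1, a desaturase of polyunsaturated fatty acids, had 17.2, 24.4 and 19.5 CPM against 19.2, 30.1 and 31.1 CPM, lower in all 3 pairs and with overlapping groups (-0.40 ± 0.28, edgeR adjusted p 0.662). Fads2, the other enzyme of that kind on the list, had 9, 14 and 19 counts against 52, 0 and 12 counts, too few to give a direction. Elovl6, which elongates long-chain saturated fatty acids, had 30.8, 20.6 and 22.7 CPM against 15.8, 42.2 and 29.1 CPM. It was higher in CD25-high cells in pair 1 and lower in pairs 2 and 3 (-0.23 ± 0.35, adjusted p 0.863).

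**Figure D3:**
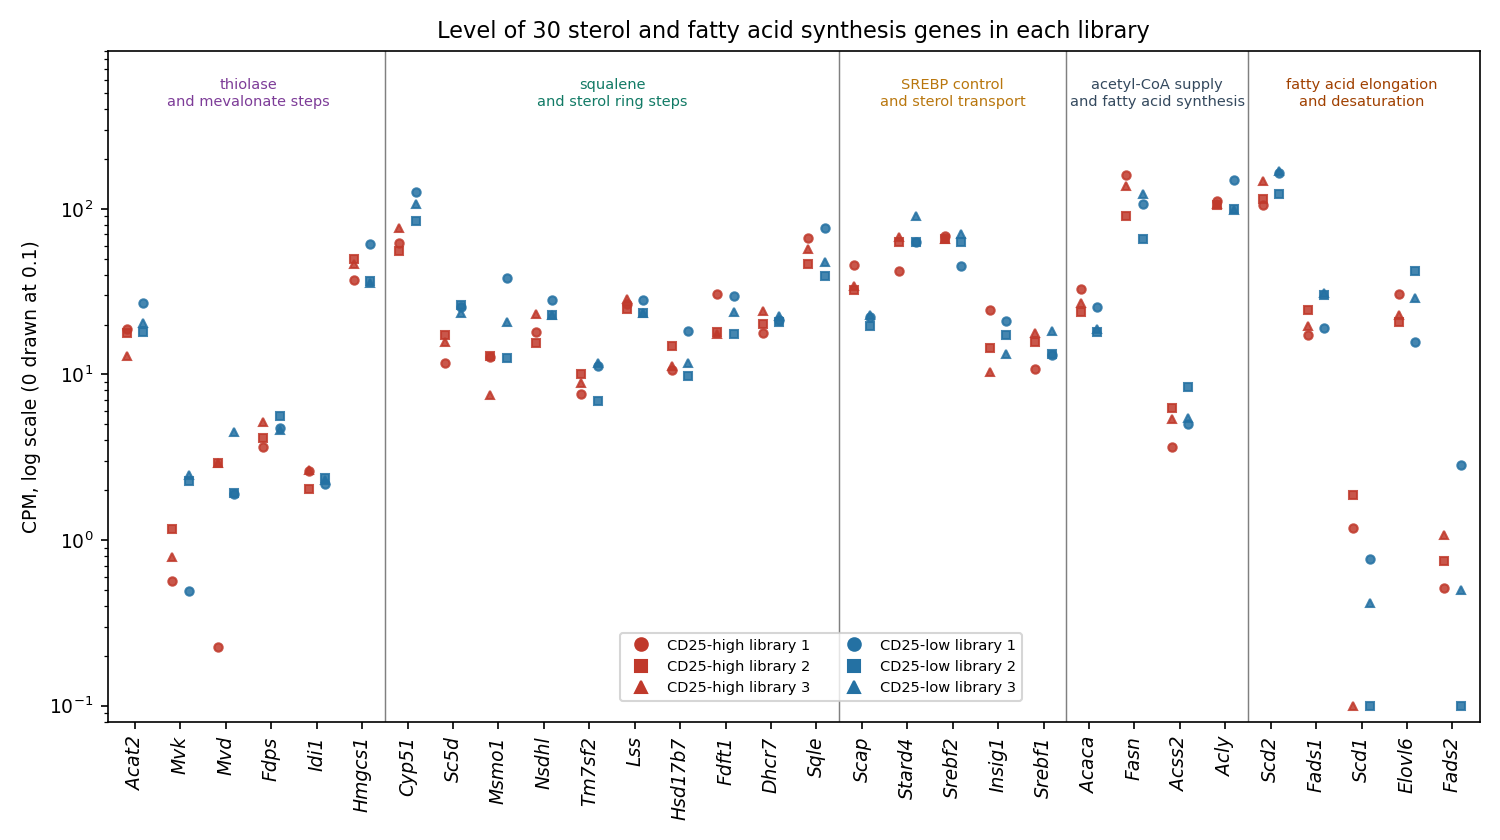
CPM of the 30 genes in each of the 6 libraries on a log axis, grouped by role (a value of 0 is drawn at 0.1). Levels span from under 1 CPM for Scd1 and Fads2 to 170 CPM for Scd2, and for nearly all genes the CD25-high and CD25-low points mix.

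Levels of different genes can be set side by side only per length, here as CPM per kilobase of merged exons averaged over the 6 libraries. The merged exons of all isoforms overstate the length of genes with many rare isoforms. On this scale Scd2 was highest (25.1), followed by Acly (21.2), Cyp51 (19.3), Stard4 (11.7), Fasn (10.4), Sqle (10) and Hmgcs1 (9.69). Scd1 (0.144), Fads2 (0.287), Mvk (0.483), Acss2 (0.56) and Idi1 (0.674) were lowest. Summed over the 16 enzymes of the sterol branch, the level was 326.5, 313.9 and 341.2 CPM across the CD25-high group, against 502.3, 330.6 and 384.4 CPM across the CD25-low group. CD25-low libraries 1 and 3 were above all CD25-high sums, and CD25-low library 2 lay among them. The 9 fatty acid genes summed to 463.8, 386.8 and 467.0 CPM against 489.3, 385.5 and 476.6 CPM, with library 2 lowest in each group and little between the groups.

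The difference between the groups varied with the pair of libraries. For the 16 sterol enzymes the median log2 difference, CD25-high minus CD25-low, was -0.54 between the libraries numbered 1, 0.00 between those numbered 2 and -0.22 between those numbered 3. Of the 16 enzymes 3, 8 and 7 were higher in the CD25-high library of pairs 1, 2 and 3, where 6612, 6454 and 6567 of all 12987 tested genes were. For the 9 fatty acid genes these medians were -0.15, 0.08 and 0.00, and over all tested genes 0.02, -0.01 and 0.01. Among the 30 genes 3 were higher in CD25-high cells in all 3 pairs, Scap, Acaca and Fasn, where 20.4% of all tested genes were. The 7 that were lower in all 3 pairs were Acat2, Cyp51, Sc5d, Stard4, Acss2, Scd2 and Fads1, where 20.2% of all tested genes were. In pair 2 for Stard4, and in pair 3 for Acss2, the difference rounds to 0.00.

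The libraries numbered 1 differ from the others in many genes, and 7.17% of all tested genes passed for that difference with the group as a term (3.19% higher and 3.98% lower in the libraries numbered 1). Of the 30 genes 0 passed in edgeR, and 6 had an unadjusted p under 0.05 (Msmo1, Stard4, Mvd, Fdft1, Sqle and Insig1), where 22.4% of all tested genes had. DESeq2 called Sqle, higher in the libraries numbered 1 by 0.61 on the log2 scale (DESeq2 adjusted p 0.0485), where DESeq2 called 11.8% of the genes it gave an adjusted p. The largest values among genes with over 10 CPM were those of Msmo1 (0.79), Insig1 (0.73), Fdft1 (0.65) and Sqle (0.59), all higher in the libraries numbered 1. For Msmo1 this came from CD25-low library 1 (38.3 CPM), since CD25-high libraries 1 and 2 had 12.8 and 13.0 CPM. Mvd (-1.81) and Stard4 (-0.46), also among the 6, were lower. Other low-count genes went both ways, with Mvk at -1.48 and Fads2 at 1.8.

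**Figure D4:**
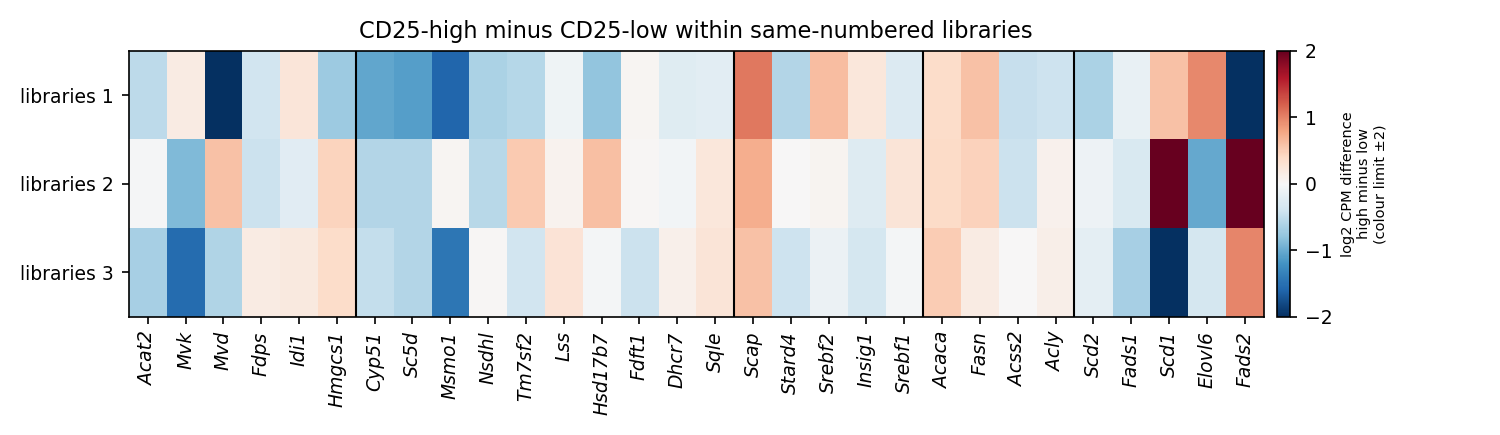
Log2 CPM difference, CD25-high minus CD25-low, for each of the 30 genes (columns, by role) within libraries of the same number (rows), with red for higher and blue for lower in CD25-high cells and the colour limited at 2 in each direction. Most sterol enzymes are blue in the top row and pale or mixed below it, while Cyp51 and Sc5d are blue and Scap red in all 3 rows.

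Beyond the 30 genes, 92 further genes of sterol and fatty acid metabolism on 5 lists were examined. Of these 83 had a row and 78 were tested. In edgeR 1 rose (Hadh) and 1 fell (Acsl3) in CD25-high cells, where 0.655% of all tested genes were called. With the block Rnf145 fell as well, which makes 3 of 78, where 4.63% of all tested genes were called. The median log2 fold change of the 78 was -0.03.

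Acsl3, an acyl-CoA synthetase that activates long-chain fatty acids and sits on lipid droplets, had 3.74, 2.08 and 1.75 CPM across the CD25-high group, against 28.7, 17.4 and 16.1 CPM across the CD25-low group. Every CD25-low library was above 16 CPM and every CD25-high library below 4 CPM. The log2 fold change was -3.04 ± 0.42, an 8.20-fold lower level (edgeR adjusted p 0.0104, or 0.000137 in the block fit). Leaving out CD25-high library 2, CD25-high library 3 or CD25-low library 2 ended the call (edgeR adjusted p 0.0552, 0.0797 and 0.0504). Acsl3 (chromosome 1, plus strand, 78657825 to 78707743) shares 244 exonic bases with Utp14b on its own strand. Utp14b had 4.53, 4.95 and 7.22 CPM against 16.7, 17.9 and 11.0 CPM (edgeR adjusted p 0.127, or 0.0397 in the block fit), and its part in the Acsl3 difference was not tested. Of the 21 tested genes of fatty acid supply, activation and lipid assembly the other 20 did not pass, among them the related synthetase Acsl4 (0.44 ± 0.20, adjusted p 0.451) and the fatty acid binding protein Fabp5 (0.93 ± 0.34, adjusted p 0.339). Lpin1 and Mid1ip1, on the same list, differed by number, with log2 values of -1.52 and -1.37 for the libraries numbered 1 relative to the rest (edgeR adjusted p 0.0484 and 0.0495).

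Hadh, a dehydrogenase of mitochondrial fatty acid oxidation, had 29.7, 39.6 and 37.3 CPM in CD25-high and 14.5, 14.4 and 10.8 CPM in the CD25-low libraries. The groups did not overlap, with means of 35.5 ± 5.18 and 13.3 ± 2.09 CPM (SD, n = 3 each). The log2 fold change was 1.42 ± 0.26 (edgeR adjusted p 0.0397, or 0.00468 in the block fit). Leaving out any single library other than CD25-high library 1 ended the call (edgeR adjusted p 0.0857 to 0.205), and the log2 fold change stayed between 1.29 and 1.49. The other 16 tested genes of fatty acid oxidation did not pass, and the list's median was -0.02. Cpt1a, which brings fatty acids into mitochondria, had 67.1, 169 and 101 CPM against 141, 204 and 149 CPM (-0.56 ± 0.31, edgeR adjusted p 0.566, or 0.0631 in the block fit). Hadh is at 131233419 to 131272101 on chromosome 3, minus strand.

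Rnf145, a ubiquitin ligase of the endoplasmic reticulum that acts in sterol control, had 94.1, 111 and 92.3 CPM in CD25-high and 145, 175 and 150 CPM in the CD25-low libraries. The groups did not overlap (-0.66 ± 0.19, edgeR adjusted p 0.201, or 0.025 in the block fit), and with the block the call was lost without pair 2 or 3 (edgeR adjusted p 0.117 and 0.114). The other 11 tested SREBP control genes passed in neither fit. Of all 12, 3 were lower and 0 higher at an edgeR unadjusted p under 0.05, where 6.39% and 4.69% of all tested genes were. Without overlap 4 of the 12 lay below and 0 above, where 9.54% and 7.41% of all tested genes did. The list's median log2 fold change was -0.06. Of 13 other tested sterol synthesis genes and 15 of sterol uptake, export and oxysterols, 0 passed in either fit, with medians of -0.15 and -0.11. Pdss1, which builds the isoprenoid tail of coenzyme Q, had the smallest p of the first list (0.47 ± 0.22, edgeR adjusted p 0.479). Tmem97, a sterol-regulated membrane protein, had 13.0, 8.84 and 7.90 CPM against 5.09, 2.73 and 4.47 CPM, without overlap (1.28 ± 0.41, edgeR adjusted p 0.267). Mylip, a ubiquitin ligase induced by oxysterols, had 4.59, 3.51 and 2.71 CPM against 3.88, 14.3 and 6.70 CPM (-1.21 ± 0.52, adjusted p 0.431).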

How the data were processed

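RNA from 3 CD25-high and 3 CD25-low libraries went through NuGEN's Ovation kit (RNA-Seq System v2) before sequencing, per the labels' protocols. The authors deposited raw counts, whole numbers of reads per Ensembl gene. The submitters' processing notes name Novoalign and DESeq2, and as builds mm10 and hg19, with no version or role. How reads were counted (tool, annotation, strand, multiple matches) is not given in the sources used here. Row totals start at 10 counts.

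Of 15445 identifiers 15169 were named through GENCODE release M21 (GRCm38, the assembly of mm10). Counts were tested with edgeR 4.0.16 (R 4.3.3), using its quasi-likelihood test, TMM factors and filterByExpr (minimum count 10, minimum total 15), which left 12987 genes, in a model of the group alone. Benjamini-Hochberg adjustment ran over all of these genes, and an adjusted p under 0.05 is a call. A standard error (SE) is the size of the log2 fold change divided by the root of F. Intervals use these SE and a t quantile on the total degrees of freedom. The fits were tested on simulated data.

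Within groups the libraries differed beyond sampling noise (chi-square 27.3 to 99.4 for each degree of freedom) and none counted as deposited again. Over the 2000 most variable genes, deviations from group means correlated at 0.34, 0.19 and 0.16 for same-numbered pairs 1, 2 and 3, each above the limit of 0.1. On these values, since no label states it, the numbers were taken as pairs, although CD25-high library 2 and CD25-low library 3 reached 0.13 too. CD25-high library 3 and CD25-low library 2 reached 0.07. The values set the libraries numbered 1 apart from the rest but hardly tell pair 2 from pair 3, so they cannot show that the numbers are pairs. The replicate block is given where it changes a call, cell type markers other than Itgam left aside.

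The 30 genes and the 5 further lists were chosen with earlier results of these data known, and the promoter motifs after the values were seen. By rule, values per library are given for members that passed in either fit and for 9 core genes. They are also given for the 3 with the smallest p and the most abundant per length in each role group. Elovl6, Fads2 and Cpt1a, with values per library, were added after their values were seen. So were Acsl4, Fabp5, Lpin1 and Mid1ip1, given by a log2 value and adjusted p only. Of each further list, genes that passed or the 2 with the smallest p are named. The values of 1 gene that this rule names are not reported here. Alternatives were DESeq2 1.42.0, limma voom (3.58.1), other normalizations and filters, thinned counts, and libraries left out.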

Additional observations from a re-analysis of the deposited data

How the results depend on the processing

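Of the 30 genes, 0 passed in each direction under every alternative without a block. With the replicate block 1 was lower (Cyp51), with the block and without pair 2 again 1 (Msmo1), and without pair 1 or pair 3 it was 0. Over all tested genes 85 were called, against 376 with DESeq2, 601 with the replicate block, 461, 486 and 536 with the block without pairs 1, 2 and 3, and 22 (without CD25-low library 2) to 130 (without CD25-high library 1) with 1 library left out. Of the further pathway genes 2 were called (Acsl3 and Hadh), 3 with DESeq2 (Cd36 as well), 4 with the block without pair 2 (Cd36 and Cpt1a as well), and 0 to 2 with 1 library left out. Cd36, a fatty acid carrier named after its values were seen, had 27, 1 and 34 counts in CD25-high and 0, 0 and 0 in CD25-low libraries and did not pass the filter on low counts. In the libraries numbered 1, DESeq2 called 1 of the 30 genes and edgeR 0. The median of the fatty acid genes was -0.23, and -0.23 to 0.12 with 1 library left out, 0.12 being the value without CD25-low library 1. It was -0.07 with voom and with the block, and -0.03 with the block without pair 1.

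The sign of some log2 fold changes was not stable, and the cause was not tested. These were not only values near 0. In the main fit Scd1 (1.38 ± 1.38), Fads2 (-0.50 ± 1.22) and Mvd (-0.45 ± 0.82) were further from 0, with wide intervals. Hmgcs1 (-0.005) was 0 with RLE factors, DESeq2 and thinned counts, 0.01 with upper-quartile factors and library size only, 0.05 with voom and 0.03 with the block. Srebf1 was 0 with RLE and 0.01 with upper-quartile factors. Fads2 was 1.46 with voom and 0.78 with the block. With 1 library left out, the lowest and highest values were -0.15 and 0.3 for Hmgcs1, -0.82 and 0.07 for Mvd, -0.41 and 0.09 for Fdft1, -0.14 and 0.38 for Sqle, -0.29 and 0.19 for Hsd17b7, -0.17 and 0.04 for Dhcr7, -0.16 and 0.18 for Srebf1, 0 and 0.31 for Srebf2, -0.46 and 0.2 for Insig1, -0.21 and 0.12 for Acly, -0.53 and 0.14 for Elovl6, and -1.09 and 1.62 for Fads2. With the replicate block and without pair 1, values were 0.41 for Hmgcs1, -0.02 for Idi1, 0.06 for Tm7sf2, 0.28 for Hsd17b7, 0.03 for Dhcr7, 0.1 for Srebf1, -0.03 for Srebf2, 0.1 for Acly and 2.59 for Fads2. Without pair 2 they were 0.29 for Elovl6 and -1.12 for Scd1, and without pair 3 they were 0.04 for Fdft1, -0.01 for Lss and 0.45 for Fads2. Cyp51, Sc5d, Msmo1 and Scap kept their direction under every alternative. So did Acat2, Mvk, Fdps, Nsdhl, Stard4, Acss2, Acaca, Fasn, Scd2 and Fads1, so this was not particular to the genes with the smallest p. Beyond Cyp51, Rnf145, Utp14b and Itgam, the block changed no call of a gene named here, other cell type markers left aside. Mvk, Mvd, Idi1, Scd1 and Fads2 had at most 109 counts in any library and the 5 widest intervals.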
